A study of Homo sapiens with 6 samples.

Results

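RGS genes encode the regulators of G-protein signalling, and 10 of them (RGS2, RGS3, RGS4, RGS5, RGS10, RGS12, RGS14, RGS16, RGS19 and RGS20) were read from the 16720 named rows of a table of RNA-seq counts. All 10 names were found in the table. They were chosen by name, as a family, with measured values of this same comparison (their fold changes and adjusted p-values) already known, so their values are a description of these libraries and the tests given for them are no independent support. The libraries came from Hep3B, an established human hepatocellular carcinoma cell line. The labels give 3 libraries of wild-type cells with a control guide (sgControl) and 3 libraries of cells with an RFX6 knockout (sgRFX6). Per the methods, both guides were delivered in the lentiCRISPRv2 vector, so that all cells carry Cas9 and puromycin selection, and single-cell-derived clones were picked, so that a group may stand for 1 clone. The labels do not say whether the libraries of a group came from separate cultures, and p-values measure only the spread between them.

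A heterotrimeric G protein carries the signal of a G-protein-coupled receptor while its alpha subunit holds GTP. RGS proteins share a domain that speeds the hydrolysis of this GTP and thereby ends the signal. The R4 subfamily (here RGS2, RGS3, RGS4, RGS5 and RGS16) consists mostly of small proteins with little beyond that domain, the R12 subfamily (RGS10, RGS12 and RGS14) includes large scaffolds, the RZ subfamily (RGS19 and RGS20) carries a cysteine-rich stretch for membrane anchoring, and the R7 subfamily works together with the beta subunit encoded by GNB5.

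The windows before the start sites of the 4 listed genes with the widest fitted differences are shown, because the knocked-out factor belongs to the RFX family, which binds X-box sequences. Each is the 250 bases before the first RefSeq start of the gene (GRCh38.p14), written 5′ to 3′ along the gene. Capitals mark matches on either strand to GTTGCC, an arm of the X-box, to TGACG, the core of the cAMP response element, or to TATAAA, the TATA box.
RGS4 chr1:163068621-163068870 (forward strand): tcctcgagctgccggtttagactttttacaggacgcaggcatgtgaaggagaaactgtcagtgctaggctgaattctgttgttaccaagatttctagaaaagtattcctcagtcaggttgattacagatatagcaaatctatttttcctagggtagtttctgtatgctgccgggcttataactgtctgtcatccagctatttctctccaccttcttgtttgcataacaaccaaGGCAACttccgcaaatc
RGS5 chr1:163321736-163321985 (reverse strand): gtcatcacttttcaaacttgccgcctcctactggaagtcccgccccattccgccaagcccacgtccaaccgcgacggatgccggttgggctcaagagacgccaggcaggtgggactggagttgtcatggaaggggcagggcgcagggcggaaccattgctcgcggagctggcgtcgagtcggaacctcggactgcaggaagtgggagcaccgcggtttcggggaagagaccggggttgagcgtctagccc
RGS14 chr5:177357674-177357923 (forward strand): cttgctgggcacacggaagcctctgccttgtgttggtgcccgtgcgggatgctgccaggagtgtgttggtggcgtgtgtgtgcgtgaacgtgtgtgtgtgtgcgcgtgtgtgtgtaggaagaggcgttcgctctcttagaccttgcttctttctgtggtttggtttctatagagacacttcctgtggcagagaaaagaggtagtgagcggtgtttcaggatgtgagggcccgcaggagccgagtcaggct
RGS2 chr1:192808789-192809038 (forward strand): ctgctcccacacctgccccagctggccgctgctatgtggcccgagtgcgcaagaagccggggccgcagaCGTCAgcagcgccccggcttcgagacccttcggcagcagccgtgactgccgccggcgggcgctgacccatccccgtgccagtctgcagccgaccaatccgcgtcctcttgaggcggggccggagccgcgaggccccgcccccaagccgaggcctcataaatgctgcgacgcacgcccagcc
The RGS4 window holds GTTGCC once, on the opposite strand and starting 17 bases before the start site. The RGS2 window holds TGACG once, starting 181 bases before the start site, and the windows of RGS5 and RGS14 hold none of the motifs. Of all 35116 RefSeq windows of this length, 10.2% hold GTTGCC, 21.2% TGACG and 10.7% TATAAA. Among the 23 windows of the listed genes, which have up to 5 starts each, 2 hold GTTGCC, 1 before a start of RGS4 and 1 before a start of RGS12. TGACG is in 5 of the 23, before 2 starts of RGS4 and 1 start each of RGS2, RGS12 and RGS3. TATAAA is in 2, before a start of RGS4 and a start of RGS3. GENCODE annotates other transcripts in these windows. The RGS4 window shares 96 bases with exons of other RGS4 transcripts, the RGS14 window shares 87 bases with exons of RGS14, and the RGS5 window shares 56 bases with exons of RGS5, 159 with exons of another entry named RGS5, and 96 with exons of NUF2 on the opposite strand. A match of letters is a description of the window and not a binding site.

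The libraries held between 16730374 and 25070770 counts, where 3 counts, taken here as the floor of detection, correspond to 0.121 to 0.188 CPM (the count relative to the library total, scaled with edgeR's TMM factors). The mean level of RFX6 itself was 6.27 ± 0.931 CPM in sgControl against 3.54 ± 0.146 CPM in sgRFX6 (SD, n = 3 each), and its log2 fold change was -0.82 (edgeR adjusted p = 0.142). All 12 hepatocyte markers were above the floor in at least 1 library, and together they reached 275 to 337 CPM in sgControl and 214 to 230 CPM in sgRFX6. Without HNF4A, the most abundant of them, the sums were 129 to 176 and 78.7 to 121 CPM. HNF4A and APOB made up most of the sums, with means of 151 and 66.6 CPM in sgControl. There ALB had 20.2 CPM, and FGA, FGB, FGG and SERPINA1 lay between 3.93 and 26.4 CPM. The sgControl means of AFP, APOA1, APOA2, TTR and TF were 2.03, 1.06, 1.69, 0.482 and 2.17 CPM. Whether these levels are usual for Hep3B was not tested. Of the 12 log2 fold changes 7 were positive and 5 negative, with a median of 0.12. ALB, which encodes albumin, was counted 298 to 793 times in sgControl and 293 to 576 times in sgRFX6, and AFP, which encodes alpha-fetoprotein, 39 to 51 and 201 to 353 times. The log2 fold change of ALB was 0.13 with all libraries and -0.02 without sgRFX6 3. Of the 12 markers edgeR called 3 (25%, beside 3.74% of all tested genes), AFP higher and the fibrinogen genes FGA and FGB lower in sgRFX6. One library of each group stood apart. The chi-square per degree of freedom against the other libraries of its group was 73.8 and 91.4 for sgControl 2 and 100 and 125 for sgRFX6 3, where the remaining pairs gave 17.2 and 18.9. For the named RGS, partner and response genes, calls and directions that change without 1 or both of these libraries are given with and without them.

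Of the 10 RGS genes, 9 had enough counts for edgeR's filter and were tested, and RGS10 did not pass. One of the 9, RGS4, had an adjusted p-value under 0.05 and was lower in sgRFX6, beside 3.74% of all 12839 tested genes called in either direction, 1.81% called lower and 1.92% called higher. At an unadjusted p-value under 0.05, 15.6% of all tested genes would be counted. RGS4 was also the one listed gene whose CPM did not overlap between the groups, beside 23.1% of all tested genes. Of the 9 fitted log2 fold changes, 7 were negative and 2 positive, with a median of -0.11 against 0.02 over all tested genes. Nothing about the family is read from these counts, since the genes were listed with this comparison in view. The count of 1 stayed the same without sgControl 2 and sgRFX6 3, where 25.2% of all genes were called.

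**Figure D1:**
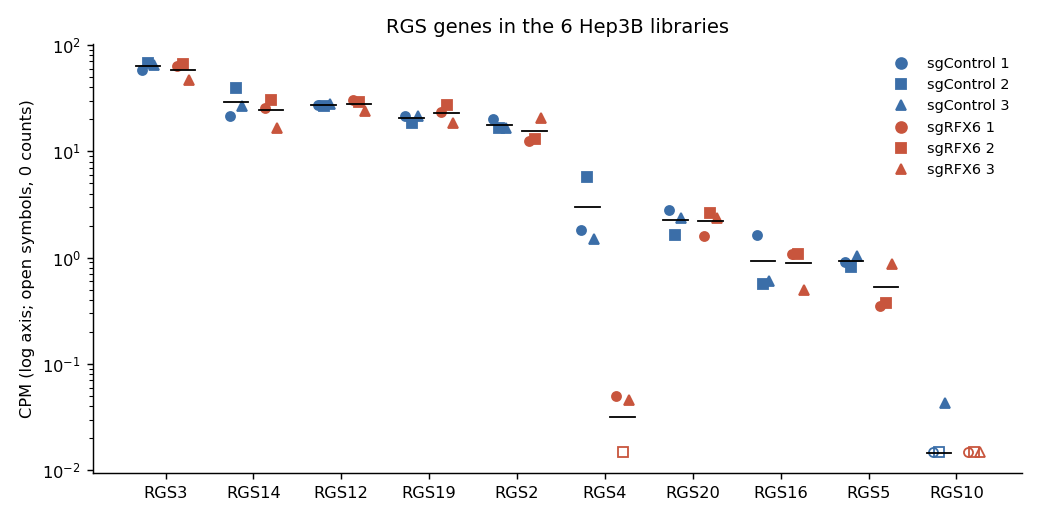
CPM of the 10 RGS genes in each library on a log axis, with sgControl in blue and sgRFX6 in red, a symbol per replicate number, and black bars for group means. Open symbols at the bottom stand for 0 counts. RGS4 lay between 1.51 and 5.71 CPM in sgControl and at or below 0.0496 CPM in sgRFX6, while the groups of the other 9 genes overlapped.

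RGS4, a small R4 regulator of Gi and Gq signalling best known from brain and heart, lies on chromosome 1 of GRCh38 (163068775 to 163076802, forward strand). The sgControl libraries held 38, 141 and 35 RGS4 counts, and the sgRFX6 libraries 1, 0 and 1. This is 1.83, 5.71 and 1.51 CPM in sgControl and 0.0496, 0 and 0.0454 CPM in sgRFX6. All sgControl libraries were well above the floor, with sgControl 2 the highest, and all sgRFX6 libraries were below it. Taken on group means and against the floor of 3 counts per library, RGS4 was at least 19.1-fold lower in sgRFX6, with 3.02 ± 2.34 CPM in sgControl (SD, n = 3). Without sgControl 2, it was at least 10.6-fold lower. The fitted log2 fold change was -6.24 (standard error, SE, 0.88, edgeR adjusted p = 0.00628), a value that depends on the prior count of the fit. RGS4 passed the filter through its sgControl libraries alone. It was called in 17 of 17 alternative fits, with the highest adjusted p-value from edgeR, 0.03, without sgRFX6 1. The call does not tell fewer cells with RGS4 mRNA from less of it per cell, and whether it comes from the guide or from the choice of a clone cannot be told apart.

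**Figure D2:**
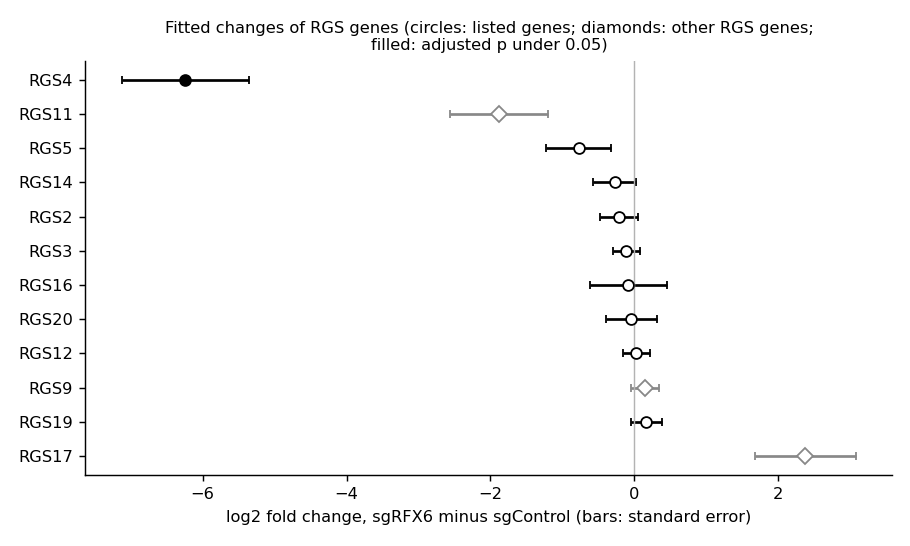
Fitted log2 fold changes, sgRFX6 minus sgControl, of the 9 tested listed genes (circles) and 3 other tested RGS genes (grey diamonds), with bars for the standard error and filled symbols for an adjusted p-value under 0.05. RGS4, at -6.24, is the filled symbol, and RGS11 and RGS17 are the open symbols farthest from 0 at -1.88 and 2.38.

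RGS5, another R4 gene and a common marker of pericytes, is the neighbour of RGS4 on chromosome 1 (163111121 to 163321791, reverse strand). The genes face each other with their ends 34.3 kb apart. RGS5 was counted 19, 20 and 24 times in sgControl and 7, 6 and 19 times in sgRFX6, or 0.915, 0.81 and 1.04 CPM and 0.348, 0.377 and 0.863 CPM. The sgRFX6 libraries 1 and 2 were below all sgControl libraries, and sgRFX6 3 was among them. The log2 fold change of RGS5 was -0.77 (SE 0.45, edgeR adjusted p = 0.489), and without sgControl 2 and sgRFX6 3 it was -1.42 (adjusted p = 0.0551). In limma-voom with sample quality weights RGS5 stood at -1.37 (adjusted p = 0.00581). The annotation holds another entry named RGS5, of the antisense class and on the same strand, that shares 534 exonic bases with the gene, and reads of both could be counted together.
Within 2 Mb of the RGS4 start, 22 other genes were tested and 0 were called by edgeR. Their log2 fold changes ran from -1.60 to 1.37, with a median of -0.11. The nearest were RGS5, NUF2, a kinetochore gene with 0.07, and HSD17B7, an enzyme of sterol synthesis with 0.00 (named for their position). With the median of the nearest 50 tested genes (-0.08) removed, the log2 fold change of RGS4 was -6.16 (edgeR adjusted p = 0.00752).

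**Figure D3:**
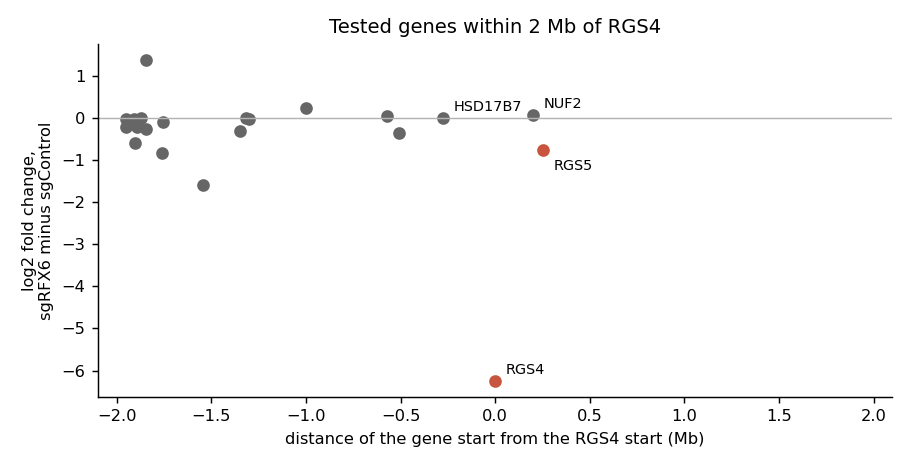
Log2 fold change, sgRFX6 minus sgControl, of each tested gene against the distance of its start from the RGS4 start in Mb, with RGS4 and RGS5 in red. The 22 neighbours lie between -1.60 and 1.37, and RGS4 lies at -6.24.

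Pericyte and smooth muscle markers were examined beside these genes. Of the 10 markers, 9 were in the table, 6 were tested and 1 was called (16.7%, beside 3.74% of all tested genes), MCAM, an adhesion molecule of pericytes and endothelium, which also occurs on tumour cells. On the log2 scale MCAM fell by 2.99 (SE 0.53, edgeR adjusted p = 0.0174), from 766, 3069 and 901 counts to 250, 98 and 143. Like RGS4, it was highest in sgControl 2. PDGFRB, a defining pericyte receptor, had 10, 15 and 5 counts in sgControl against 3, 0 and 2 in sgRFX6. Among the contractile genes, ACTA2 and CNN1 reached at most 8 and 4 counts in any library. TAGLN and MYH11, other smooth muscle markers of the list, were present in every library, with at least 56 and 13 counts. Their groups overlapped, and their log2 fold changes were 0.38 and -0.46 (edgeR adjusted p = 0.635 and 0.634). Without sgControl 2 the log2 fold change of MCAM was -2.18 (edgeR adjusted p = 0.0243). The summed level of the list was 48.8 to 138 CPM in sgControl and 19.1 to 26 CPM in sgRFX6, and for the 8 markers other than MCAM it was 11.9 to 13.4 CPM and 11 to 19.5 CPM. Of the 6 tested markers 4 were fitted higher in sgRFX6, and the median log2 fold change of the 6 was 0.14. None of the 9 markers was at 0 in every library. Their part in the values of RGS4 and RGS5 was not tested. Of the 8 endothelial markers 6 were in the table, summing to 32.8 to 33.7 CPM in sgControl and 43.3 to 66.2 CPM in sgRFX6. Most of this sum came from PECAM1 and ESAM, with means of 12.1 and 20.7 CPM in sgControl and 16.6 and 37.5 CPM in sgRFX6. Of the 10 immune markers 9 were in the table, summing to 74 to 161 and 65.2 to 103 CPM. Nearly all of that sum was CD68, with 72.1, 156 and 87.5 CPM in sgControl and 99.1, 98.9 and 61 CPM in sgRFX6. The pan-leukocyte gene PTPRC had at most 22 counts in any library. Of the endothelial and of the immune markers, 2 each were at or below the floor in all libraries.

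RGS2, an R4 regulator with a preference for Gq whose transcription is induced by cAMP and other stimuli in many cells, lies on chromosome 1 (192809039 to 192812283). Its levels were 20, 16.6 and 16.7 CPM in sgControl and 12.5, 13.1 and 20.5 CPM in sgRFX6. The sgRFX6 libraries 1 and 2 were below all sgControl libraries and sgRFX6 3 above them. The log2 fold change of RGS2 was -0.21 (SE 0.26, edgeR adjusted p = 0.799), and without sgControl 2 and sgRFX6 3 it was -0.52 (adjusted p = 0.0646). With limma-voom and sample quality weights it was -0.44 with an adjusted p-value of 0.0379.
RGS3, an R4 gene with several long isoforms, lies on chromosome 9 (113444731 to 113597743). It had 57.9, 67 and 64.2 CPM in sgControl and 62.8, 65.6 and 47.3 CPM in sgRFX6, the highest counts of the listed genes. The groups overlapped, with sgRFX6 3 the lowest of the 6 libraries. For RGS3 the log2 fold change was -0.11 (SE 0.19, edgeR adjusted p = 0.869).
RGS16, an inducible R4 regulator, lies on chromosome 1 (182598623 to 182604408) and was counted 34, 14 and 14 times in sgControl and 22, 17 and 11 times in sgRFX6. Its log2 fold change of -0.08 had a standard error of 0.54 (edgeR adjusted p = 0.972), so that a change of moderate size in either direction was not detectable at this depth.

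In the R12 subfamily, RGS10, a small regulator known from immune cells and brain, lies on chromosome 10 (119499828 to 119542708). It was counted once in all, in sgControl 3, and was at or below the floor in every library, so no fold change is given. RGS12, a scaffold with further domains that bind Ras and G alpha subunits, lies on chromosome 4 (3293028 to 3439913). It had 27.2, 26.9 and 27.6 CPM in sgControl and 30.3, 29.1 and 23.9 CPM in sgRFX6, the narrowest control spread of the listed genes relative to its level (27.2 ± 0.326 CPM, SD, n = 3). Its log2 fold change was 0.03 (SE 0.19, edgeR adjusted p = 0.973). RGS14, a related scaffold, lies on chromosome 5 (177357837 to 177372601) and had 21.7, 39 and 26.6 CPM in sgControl and 25.6, 30.3 and 16.6 CPM in sgRFX6. The spread within each group was as wide as the difference between them (log2 fold change -0.27, SE 0.30, edgeR adjusted p = 0.768). Without sgControl 2 and sgRFX6 3 the log2 fold change of RGS14 was 0.21 (adjusted p = 0.397).
In the RZ subfamily, RGS19, known to act on Gi alpha subunits, lies on chromosome 20 (64073181 to 64079988). It had 21.6, 18.5 and 21.4 CPM in sgControl and 23.5, 27.3 and 18.5 CPM in sgRFX6, with overlapping groups and a log2 fold change of 0.17 (SE 0.22, edgeR adjusted p = 0.812). RGS20, a regulator of the Gz alpha subunit, lies on chromosome 8 (53851808 to 53959303). It had 2.79, 1.62 and 2.37 CPM in sgControl and 1.59, 2.64 and 2.36 CPM in sgRFX6. The order of the libraries showed no separation by group, and the log2 fold change was -0.04 (SE 0.35, edgeR adjusted p = 0.976).

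Levels of different genes were compared per kilobase of annotated exon, in CPM per kilobase. In sgControl the order was RGS19 (10.1 ± 0.865), RGS2 (8.47 ± 0.92), RGS14 (7.67 ± 2.35), RGS3 (4.57 ± 0.338), RGS12 (1.98 ± 0.0237), RGS20 (0.709 ± 0.186), RGS4 (0.624 ± 0.483), RGS16 (0.386 ± 0.25), RGS5 (0.135 ± 0.0166) and RGS10 (0.0115 ± 0.0199; SD, n = 3 each). The ranges of RGS19, RGS2 and RGS14 overlapped from neighbour to neighbour, as did those of RGS20, RGS4 and RGS16, whereas 5 of the 9 neighbouring pairs were separate. The same order held in sgRFX6 except that RGS4 moved from rank 7 to rank 9, between RGS5 and RGS10. The exonic lengths of RGS3 and RGS12 (13793 and 13755 bases) sum many alternative transcripts, of which the longest have 4591 and 5512 bases. With the longest transcript as the length, RGS3 stood first in sgControl at 13.7 ± 1.01 CPM per kilobase, and its range overlapped with that of RGS2 at 13.1 ± 1.42 (SD, n = 3 each).

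The spread within a group followed single libraries. The library sgRFX6 3 differed from the other sgRFX6 libraries with the GC content of transcripts (Spearman correlation across all tested genes -0.83 against sgRFX6 1 and -0.82 against sgRFX6 2). The other pairs also differed with GC content, less strongly. Against sgControl 1 the correlation was 0.49 for sgControl 2 and 0.53 for sgControl 3. It was -0.27 for sgControl 3 against sgControl 2, and 0.30 for sgRFX6 2 against sgRFX6 1. Genes are not independent replicates in this measure. In sgRFX6 3 the listed genes split in the same way as all tested genes. All 5 tested genes with a GC content above 50% (RGS3, RGS12, RGS14, RGS16 and RGS19) were lower in sgRFX6 3 than the mean of the other sgRFX6 libraries, at 0.462 to 0.804 of it. All 3 with a GC content below 50% and counts above the floor (RGS2, RGS5 and RGS20) were higher, at 1.12 to 2.38 times the mean. With the GC trend of each library removed, the log2 fold changes were -0.27 for RGS2 (edgeR adjusted p = 0.249), -0.97 for RGS5 (adjusted p = 0.122), -0.27 for RGS14 (adjusted p = 0.38) and -6.44 for RGS4 (adjusted p = 0.00744). None of the other 8 tested listed genes was called with this correction.

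**Figure D4:**
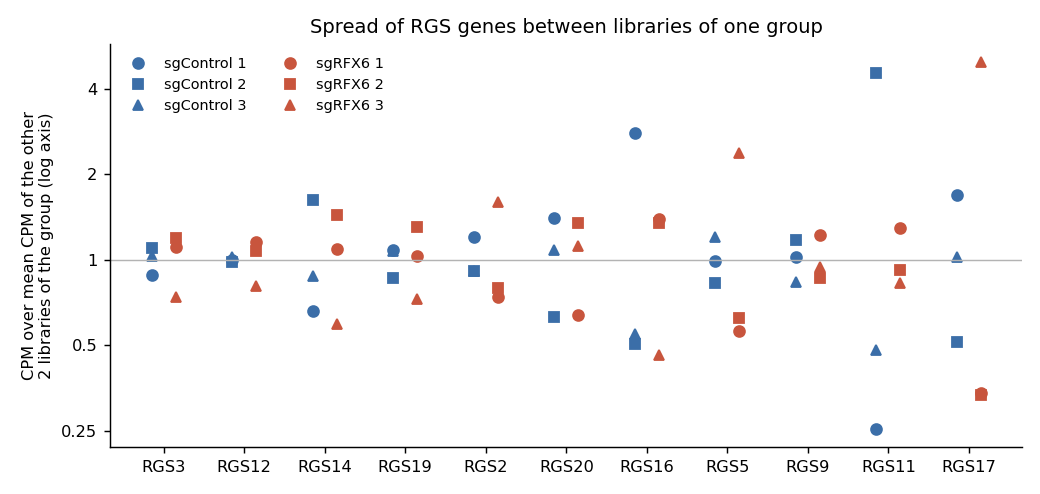
CPM of each library divided by the mean CPM of the other 2 libraries of its group, on a log axis, for 8 listed and 3 other RGS genes. The symbols of sgRFX6 3 (red triangles) lie at 0.462 for RGS16, 2.38 for RGS5 and 4.95 for RGS17, and that of sgControl 2 (blue square) at 4.54 for RGS11.

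Other RGS genes were looked up under 11 names, of which 8 are in the table. Of these, 3 were tested and 0 were called by edgeR, with 2 at an unadjusted p-value under 0.05. Among the 80 genes of all partner lists (other RGS genes, other genes with an RGS domain, G-protein subunits, effectors, cofactors and arrestins), 74 are in the table, 55 were tested and 0 were called by edgeR, beside 3.74% of all tested genes. Of the 55, 6 had an unadjusted p-value under 0.05, beside 15.6% of all tested genes, and the median log2 fold change was 0.13. The share of 15.6% also belongs beside the unadjusted counts given for each single list. The CPM of the groups did not overlap for 8 of the 55, 2 higher and 6 lower in sgRFX6, beside 23.1% of all tested genes. The count moved with the tool, the correction and the choice of libraries, as did the share of all genes called. DESeq2 called 1 (1.64% of the list, beside 6.44% of all genes), edgeR with GC offsets 4 (7.27%, beside 10.8%) and limma-voom with sample quality weights 15 (27.3%, beside 31.1%). Without sgControl 2 and sgRFX6 3 edgeR called 10 (18.2%, beside 25.2%), of them 6 higher and 4 lower.
RGS9, an R7 gene of photoreceptors and striatum, was the most counted of the other RGS genes, with 626, 812 and 609 counts in sgControl against 755, 474 and 699 in sgRFX6. Its level was 29.8 ± 3.31 CPM in sgControl against 33 ± 4.01 CPM in sgRFX6 (SD, n = 3 each), with a log2 fold change of 0.15 (SE 0.20, edgeR adjusted p = 0.819). Its obligate partner GNB5 had 43.4 and 47.2 CPM, and its membrane anchor RGS9BP 2.82 and 4.1 CPM, both with overlapping groups. RGS9BP was called without sgControl 2 and sgRFX6 3, at 0.95 (edgeR adjusted p = 0.0434).
RGS17, the third RZ gene, was counted 17, 9 and 14 times in sgControl and 27, 21 and 145 times in sgRFX6. Every sgRFX6 library was above every sgControl library in CPM, and sgRFX6 3 was far above the rest. The log2 fold change of RGS17 was 2.38 (SE 0.70, edgeR adjusted p = 0.117) and 1.17 without sgRFX6 3. It was 0.90 without sgControl 2 and sgRFX6 3 (adjusted p = 0.129). With GC offsets RGS17 was called at 1.97 (adjusted p = 0.0149), and with DESeq2 at 2.40 (adjusted p = 0.0122).
RGS11, an R7 gene, was counted 12, 88 and 23 times in sgControl and 11, 7 and 9 times in sgRFX6. Its log2 fold change was -1.88 (SE 0.68, edgeR adjusted p = 0.208) and -0.76 without sgControl 2. RGS11 shares 581 exonic bases with ARHGDIG, 296 with AC004754.1 and 196 with FAM234A, all on the opposite strand, and since the sources used here do not state that strand was used in counting, reads of these genes cannot be told apart. RGS6, also of the R7 subfamily, had 2, 18 and 2 counts in sgControl and 0 in each sgRFX6 library, and was above the floor in sgControl 2 alone. RGS22 had at most 4 counts in any library, and RGS1, RGS7 and RGS13 were at or below the floor in all 6.

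Of the 14 other genes with an RGS domain, all 14 were tested and 0 were called, with 1 at an unadjusted p-value under 0.05. Their log2 fold changes were positive for 7 and negative for 7, with a median of 0.03. Among the most abundant by average CPM were GRK2, a kinase of activated receptors (151 CPM in sgControl and 188 in sgRFX6), and AXIN2, a scaffold of Wnt signalling (151 and 171 CPM). GRK2 was called at 0.55 without sgControl 2 and sgRFX6 3 (edgeR adjusted p = 0.0074), a fit that called 25.2% of all genes. GRK3, the closest relative of GRK2 and named after its values were seen, had 46, 67 and 47 counts in sgControl against 18, 10 and 26 in sgRFX6. The log2 fold change of GRK3 was -1.34 (SE 0.36, edgeR adjusted p = 0.0867), and the groups did not overlap. It was called without sgControl 2 and sgRFX6 3, at -1.45 (edgeR adjusted p = 0.0241).
Among the alpha subunits, which are the substrates of RGS proteins, 11 of 15 were tested and 0 called, with 1 at an unadjusted p-value under 0.05. GNAS, the stimulatory subunit, had 688 CPM in sgControl and 513 in sgRFX6 (log2 fold change -0.42, SE 0.21, edgeR adjusted p = 0.385), and its groups did not overlap. The inhibitory subunit GNAI2 had 283 and 229 CPM, and GNA11 of the Gq class 132 and 145 CPM. Without sgControl 2 and sgRFX6 3 the direction of GNAI2 turned, at 236 and 256 CPM (log2 fold change 0.12, edgeR adjusted p = 0.463). GNA14, also of the Gq class and named after its values were seen, had 11, 19 and 18 counts in sgControl against 30, 24 and 38 in sgRFX6 (log2 fold change 1.18, SE 0.35, edgeR adjusted p = 0.12). The groups of GNA14 did not overlap in CPM either.
Of the 17 beta and gamma subunits, 11 were tested and 0 called, with 0 at an unadjusted p-value under 0.05. GNB2 had 526 and 611 CPM, GNB1 388 and 333 CPM, and GNG12 78.1 and 83.5 CPM in sgControl and sgRFX6. GNG12 turned without sgRFX6 3, at 78.1 and 65.6 CPM (log2 fold change -0.25, edgeR adjusted p = 0.43), and GNB2 was called without sgControl 2 and sgRFX6 3 (log2 fold change 0.42, edgeR adjusted p = 0.0181). The fit without sgControl 2 and sgRFX6 3 called 25.2% of all genes. Of the 14 effectors, phospholipases C and adenylyl cyclases, 8 were tested and 0 called, with 1 at an unadjusted p-value under 0.05. ADCY6 had 130 and 138 CPM, ADCY7 128 and 107 CPM, and PLCB3 111 and 112 CPM. Of these, ADCY7 alone had groups that did not overlap (log2 fold change -0.26, edgeR adjusted p = 0.46). Without sgRFX6 3, edgeR called 1 partner gene, PLCB1, at -1.51 (adjusted p = 0.0223), which stood at -0.73 (adjusted p = 0.524) with all libraries. PLCB1 was also called without sgControl 2 and sgRFX6 3, at -1.50 (edgeR adjusted p = 0.00454). Of the 9 cofactors and arrestins, 8 were tested and 0 called, with 1 at an unadjusted p-value under 0.05. RIC8A, a chaperone and exchange factor of alpha subunits, had 122 and 138 CPM, and the arrestins ARRB2 and ARRB1 had 61.3 and 37.2 CPM and 41 and 49.7 CPM. For ARRB2 the groups did not overlap, and the log2 fold change was -0.72 (SE 0.25, edgeR adjusted p = 0.184). ARRB2 was called with GC offsets (-0.71, edgeR adjusted p = 0.0126) and with limma-voom and sample quality weights (-0.48, adjusted p = 0.0136). It was not called without sgControl 2 and sgRFX6 3 (-0.36, edgeR adjusted p = 0.0806). ARRB1 was called without sgControl 2 and sgRFX6 3 (log2 fold change 0.52, edgeR adjusted p = 0.0299).

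**Figure D5:**
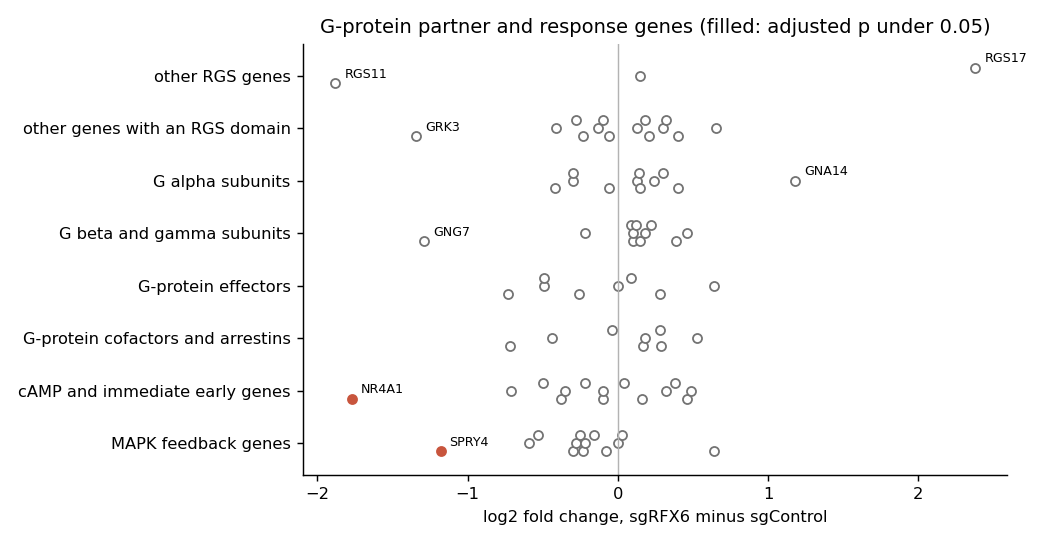
Log2 fold change, sgRFX6 minus sgControl, of each tested gene of 6 lists of G-protein partners and 2 lists of response genes, a row per list, with filled symbols for an adjusted p-value under 0.05. The filled symbols are NR4A1 at -1.77 and SPRY4 at -1.18, and RGS17 (2.38), GNA14 (1.18), GRK3 (-1.34), GNG7 (-1.29) and RGS11 (-1.88) are named among the open ones.

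Genes that commonly respond to receptor signalling were described from a pair of lists. Of 30 genes (17 cAMP and immediate early genes and 13 MAPK feedback genes), 27 were tested and 2 were called, 0 higher and 2 lower (7.41%, beside 3.74% of all tested genes in either direction and 1.81% lower). The median log2 fold change of the 27 was -0.22, against 0.02 over all tested genes. NR4A1, an immediate early nuclear receptor, had 24.7, 14.4 and 14 CPM in sgControl and 7.4, 3.52 and 4.63 CPM in sgRFX6. The highest sgRFX6 value lay below the lowest sgControl value, and on the log2 scale NR4A1 fell by 1.77 (SE 0.36, edgeR adjusted p = 0.0296). SPRY4, a feedback inhibitor of receptor tyrosine kinase signalling, had 79.6, 54.8 and 51 CPM in sgControl and 29.2, 25 and 27.4 CPM in sgRFX6. The groups did not overlap, and SPRY4 fell by 1.18 (SE 0.22, edgeR adjusted p = 0.0217).
When single libraries were omitted, NR4A1 was called in 1 and SPRY4 in 2 of 6 fits, and the highest edgeR adjusted p-values were 0.089 and 0.0905. The log2 fold changes in these fits ran from -2.11 to -1.45 for NR4A1 and from -1.27 to -0.96 for SPRY4. Of the 27 genes, 0 were called without sgControl 1, without sgControl 3 and without sgRFX6 2, and 1 without each of the others. Without sgControl 2 and sgRFX6 3, NR4A1 and SPRY4 were both called (adjusted p = 0.00907 and 0.00405 from edgeR). That fit called 4 of the 27 genes (14.8%), beside 25.2% of all genes. The nearest 50 tested genes of SPRY4 had a median log2 fold change of -0.38, and with this median removed SPRY4 had an adjusted p-value of 0.113. Over all 17 alternatives the log2 fold change of SPRY4 ran from -1.27 to -0.80. JUNB, IER2 and KLF4, the most abundant of the first list, had 138 and 106, 115 and 107, and 84 and 105 CPM in sgControl and sgRFX6, each with overlapping groups. Without sgControl 2 and sgRFX6 3, JUNB and IER2 turned in direction, with log2 fold changes of 0.12 and 0.04 (edgeR adjusted p = 0.655 and 0.917). CCND1, PHLDA1 and DUSP4, the most abundant of the second list, had 245 and 207, 221 and 179, and 162 and 153 CPM, also with overlapping groups. PHLDA1 was called without sgControl 2 and sgRFX6 3, at -0.41 (edgeR adjusted p = 0.046).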

How the data were processed

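RNA from 6 Hep3B libraries (3 sgControl, 3 sgRFX6) was isolated with Trizol and sequenced on an Illumina Hi-Seq. Raw read counts, not normalised, were deposited by the authors in 1 table with a row per gene or transcript. The submitters' processing notes name GRCh38 and hg38, and the aligner, counting program and strand setting are not given in the sources used here. The control columns are named cas and were taken as sgControl, the only control group, and the columns named sg3 as sgRFX6. One unnamed row, with no more than 9.17e-05% of any library, was left out.

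Counts were compared with edgeR 4.0.16 in R 4.3.3 (filterByExpr with a minimum count of 10 and a minimum total of 15, TMM factors, quasi-likelihood test, Benjamini-Hochberg adjustment over 12839 genes, threshold 0.05). Libraries held 16730374 to 25070770 counts. The SE was obtained as the fitted log2 fold change over the root of F, and 3 counts were taken as the floor. The bounds on the RGS4 fold set the sgControl mean against the mean floor of the sgRFX6 libraries (0.158 CPM). They cover neither counting error nor the spread between libraries. GENCODE release 29 gave gene positions, exonic lengths and GC (15422 rows matched by name, 256 by another symbol), which is not stated to be the authors' annotation. GC content was available for 95.1% of tested genes. Promoter windows came from RefSeq (GRCh38.p14).

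The genes and lists were chosen with earlier results of these data known. Named are the 10 genes and RFX6, other RGS genes above the floor, and of each partner and response list the called genes and the 3 with the highest average CPM, of which 1 is not reported here. Genes outside this rule, and the genes examined as markers or neighbours, are named as such. Settings tried beside it were limma-voom (limma 3.58.1, sample quality weights), DESeq2 1.42.0, other filters, scaling by RLE factors or by library size, the replicate number as a block, removal of each library's GC trend (span 0.3), removal of the median of the nearest 50 tested genes, and each library left out in turn. Leaving out sgControl 2 and sgRFX6 3 together was added after the data were seen. The fits were tested on simulated counts with known changes.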

Additional observations from a re-analysis of the deposited data

How the results depend on the processing

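RGS4 was called lower in all 17 alternative fits, with log2 fold changes from -6.57 to -4.81. The number of listed RGS genes called was 1 in every alternative except limma-voom with sample quality weights, which called 3 (RGS2 and RGS5 in addition; 33.3%, beside 31.1% of all genes). Of 152 values of the 9 tested genes under alternatives, 138 kept their direction and their side of the threshold, 2 were called in addition and 12 changed direction, all of genes that were not called. These were RGS3 without sgRFX6 3 (0.03) and without sgControl 2 and sgRFX6 3 (0.07), RGS12 without sgRFX6 1 (-0.04) and sgRFX6 2 (-0.01), RGS14 with limma-voom (0.01) and without sgControl 2 and sgRFX6 3 (0.21), RGS16 with limma-voom (0.46), without sgControl 1 (0.58) and without sgRFX6 3 (0.23), and RGS20 without sgControl 1 (0.13), sgControl 3 (0.03) and sgRFX6 1 (0.15). With 1 library left out, RGS3 ranged from -0.20 to 0.03, RGS14 from -0.46 to 0.00, RGS16 from -0.34 to 0.58 and RGS20 from -0.24 to 0.15, and RGS20 was -0.30 without sgControl 2 and sgRFX6 3. The causes were not tested. The count of 480 genes called over the whole table was 908 with DESeq2, 3998 with limma-voom, 1389 with GC offsets and 3238 without sgControl 2 and sgRFX6 3, and with 1 library left out it lay between 212 (without sgControl 3) and 718 (without sgRFX6 3), with 306 without sgControl 1, 216 without sgRFX6 1 and 307 without sgRFX6 2.

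The 0 partner genes called became 1 with DESeq2, 15 with limma-voom, 4 with GC offsets, 2 with GC offsets and the replicate block, and 10 without sgControl 2 and sgRFX6 3, and 0 to 1 with 1 library left out. The 2 response genes called became 8 with limma-voom, 4 higher and 4 lower (29.6%, beside 31.1% of all genes). Among the higher was DUSP6, named after its values were seen, at 0.90 (limma-voom adjusted p = 0.00537). In the main fit DUSP6 stood at 0.64 (edgeR adjusted p = 0.246). The response genes called were 4, all lower, without sgControl 2 and sgRFX6 3 (14.8%, beside 25.2%). They were 1 with the regional median removed, and 0 to 1 with 1 library left out. RFX6 (-0.89 to -0.67 with 1 library left out) was called with limma-voom (-0.96), with GC offsets (-0.85) and without sgControl 2 and sgRFX6 3 (-0.87). With the coding length in place of the exonic length, 3 of the 9 neighbouring pairs of levels were separate in sgControl. The replicate numbers did not pair the libraries, since same-numbered libraries correlated at -0.41, 0.17 and -0.09 in their deviations from the group means. Across numbers, sgRFX6 1 correlated at 0.44 with sgControl 2, sgRFX6 2 at 0.28 with sgControl 3, and sgRFX6 3 at 0.57 with sgControl 1. The remaining pairs lay between -0.45 and -0.23. A pairing under other numbers was not tested. With the replicate block, edgeR called 648 genes in all, the same number of listed RGS genes, and 1 partner gene, RGS17 (2.03, adjusted p = 0.0177). RGS10 had 1 count in all and did not pass the filter. With no filter on low counts all 10 listed genes were tested, and RGS4 was the 1 called. RGS5, RGS16 and RGS20 had at most 58 counts in any library.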
